A study of Homo sapiens with 6 samples.

Results

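The genes examined were 46 DNA replication and G1/S genes, chosen by symbol from a fixed list and read from the 46 matching rows of a table of 23384 gene rows. The list was drawn up by function, with earlier results of these data known. All 46 members were found and passed the filter on low counts. RNA-seq read counts came from the established cell line CAL27, an oral squamous cell carcinoma of human origin, grown in DMEM with fetal bovine serum. The 3 control libraries came from cells of genotype WT given vector alone, and 3 libraries, called TNFAIP2-labelled here, from cells labelled as overexpressing TNFAIP2 from a plasmid. The sources used here do not give the promoter of the plasmid, the time after its delivery, or whether the cells were 1 clone or a pool. Separate cultures are named for no library, so a p-value here measures the spread among these libraries, which may be technical. By its title, the study asked about TNFAIP2 and NF-κB signalling in lymph node metastasis.

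As background, DNA replication starts at origins bound by the origin recognition complex, where CDC6 and CDT1 load the MCM helicase in G1. At the G1/S transition, cyclin E and its kinase release E2F factors from the retinoblastoma protein, and E2F factors drive the genes of licensing, helicase activation, DNA synthesis and nucleotide supply. CDC45 and the GINS complex then turn the loaded MCM ring into the active CMG helicase, the polymerases copy each strand on the PCNA clamp, and squamous carcinomas often show this program at high levels because many of their cells are cycling.

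Counts of TNFAIP2 itself were 194, 112 and 162 in the controls (replicates 1 to 3) and 194, 152 and 142 in the TNFAIP2-labelled libraries (replicates 1 to 3), a log2 fold change (TNFAIP2-labelled minus control, also called log2 difference here) of -0.21 (standard error, SE, 0.28) with edgeR adjusted p = 0.881, so its counts do not check the labels. Libraries held between 3092261 and 3527161 counts. The 10 squamous epithelial markers looked for all had counts. They summed to 3285 to 5011 in controls and to 4424 to 5925 in the other group. Per library, KRT5 had 1555 to 2503 counts, TP63 42 to 359 and DSG3, the lowest of the 10, 2 to 20. Markers of other cell types were few: 6 fibroblast markers summed to 3 to 11 and 6 to 21 counts, 6 leukocyte markers to 18 to 21 and 13 to 23, and 4 endothelial markers to 15 to 32 and 18 to 41, with COL3A1, DCN, LUM, PTPRC, PECAM1, VWF and KDR at 0. In this table, a feature contained in a gene on the other strand often held more counts than the gene's own row. Only features with at least 60 counts were taken, with no minimum for the gene. That choice favours low ratios, also in the ratio given next. The own-strand ratio, the median over 369 features contained in a gene on the other strand of the gene's own count to the feature's count, was 0.102, 0.0991 and 0.180 in the controls (replicates 1 to 3) and 0.198, 0.134 and 0.192 in the TNFAIP2-labelled libraries (replicates 1 to 3). Control replicate 3 thus stood with TNFAIP2-labelled replicates 1 and 3. The strand setting used to count reads is unknown here. Had it been opposite to that of the kit, own-row counts would hold only leftover reads of each gene, so every level, fold change and order of abundance below is that of own-row counts and may not be that of the gene's mRNA.

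E2F-type motifs, which the list did not use, were found near the start of many but not all members. Promoter windows of 300 bases, 250 before to 50 after a RefSeq start site (build GRCh38.p14), were found for 39 of the 46 members, and 21 of these genes (53.8%) held at least 1 of 4 motifs of the E2F type on either strand. The motifs were TTTGGCGC or TTTCCCGC or TTTGCCGC or TTTCGCGC. The first and the last end in GCGC, so each can overlap its own reverse complement. Among all 27305 genes with such a window, 3.99% held one, and among 51 other replication and G1/S genes 25.5% did. Median GC content was 67.5% for the member windows and 58.7% for all windows, and GC content was not adjusted for. Shown here are windows of the members that the results below return to, 5′ to 3′ on the gene's strand with motif letters in capitals: the MCM helicase subunit MCM2 (chromosome 3, 127598161 to 127598460, plus strand), the GINS subunit GINS3 (chromosome 16, 58392221 to 58392520, plus strand), the checkpoint adaptor CLSPN (chromosome 1, 35769929 to 35770228, minus strand) and the thymidylate synthase gene TYMS (chromosome 18, 657403 to 657702, plus strand).
MCM2: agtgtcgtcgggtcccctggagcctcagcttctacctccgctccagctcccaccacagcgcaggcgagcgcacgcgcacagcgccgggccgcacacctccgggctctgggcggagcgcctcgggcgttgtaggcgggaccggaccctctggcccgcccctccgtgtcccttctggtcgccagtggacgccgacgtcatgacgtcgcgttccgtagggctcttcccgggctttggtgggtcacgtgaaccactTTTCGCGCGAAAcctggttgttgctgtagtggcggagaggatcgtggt
GINS3: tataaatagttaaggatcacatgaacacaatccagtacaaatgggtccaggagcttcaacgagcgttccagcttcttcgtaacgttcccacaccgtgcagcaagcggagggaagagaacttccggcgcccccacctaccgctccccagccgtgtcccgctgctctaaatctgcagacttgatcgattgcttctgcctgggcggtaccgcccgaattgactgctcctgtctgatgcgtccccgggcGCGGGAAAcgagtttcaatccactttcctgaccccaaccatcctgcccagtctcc
CLSPN: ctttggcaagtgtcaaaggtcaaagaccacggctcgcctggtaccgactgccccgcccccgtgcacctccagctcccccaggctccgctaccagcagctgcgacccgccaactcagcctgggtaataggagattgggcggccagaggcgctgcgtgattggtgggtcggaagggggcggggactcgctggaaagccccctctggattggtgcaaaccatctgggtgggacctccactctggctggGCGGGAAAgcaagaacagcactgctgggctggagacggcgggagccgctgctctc
TYMS: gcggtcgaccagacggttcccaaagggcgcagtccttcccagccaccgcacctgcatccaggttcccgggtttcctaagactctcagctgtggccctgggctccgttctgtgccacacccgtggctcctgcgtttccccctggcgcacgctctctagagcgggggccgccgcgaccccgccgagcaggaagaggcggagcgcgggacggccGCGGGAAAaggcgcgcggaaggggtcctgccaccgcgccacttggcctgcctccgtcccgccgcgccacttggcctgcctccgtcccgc
In MCM2, a pair of overlapping matches begins 2 bases after the start. In CLSPN and in GINS3 the match begins 5 bases before the start, and in TYMS 39 bases before it. A match is a description of letters and no evidence of binding. The 21 members with a match had 13 positive log2 fold changes between the groups (median 0.11), and the 18 without had 16 (median 0.17).

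No replication or G1/S gene passed the test between TNFAIP2-labelled and control libraries. With edgeR's quasi-likelihood test and Benjamini-Hochberg adjustment, 0 of 46 members had an adjusted p below 0.05, where the share called was 0% of all 11851 rows tested. DESeq2 and limma-voom called 0 members each, where they called 3 and 1 of all 11851 rows. At an unadjusted p below 0.05 there was 1 member, CLSPN, against 4.89% of all rows and 3.58% of protein-coding rows. Log2 fold changes ran from -0.57 for POLA1 to 1.59 for CLSPN with a median of 0.11, and their SEs from 0.20 to 0.92. In these bulk libraries, a different share of cells in S phase and a different amount of RNA of these genes per cell cannot be told apart.

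Positive values were more common than negative ones, as they were among protein-coding genes in general. Of the members, 33 of 46 had a log2 fold change above 0. The same held for 62.0% of the 9057 protein-coding rows tested, for 51.9% of all rows and for 19.1% of the 2794 rows of other types. The median log2 fold change was 0.11 over members, 0.13 over protein-coding rows and 0.024 over all rows. CLSPN was the only member whose 3 TNFAIP2-labelled libraries all lay above the 3 controls, which 5.54% of all rows and 6.79% of protein-coding rows did. For 0 members they all lay below, against 4.92% and 3.32%. The difference between members and other rows was not tested.

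**Figure D1:**
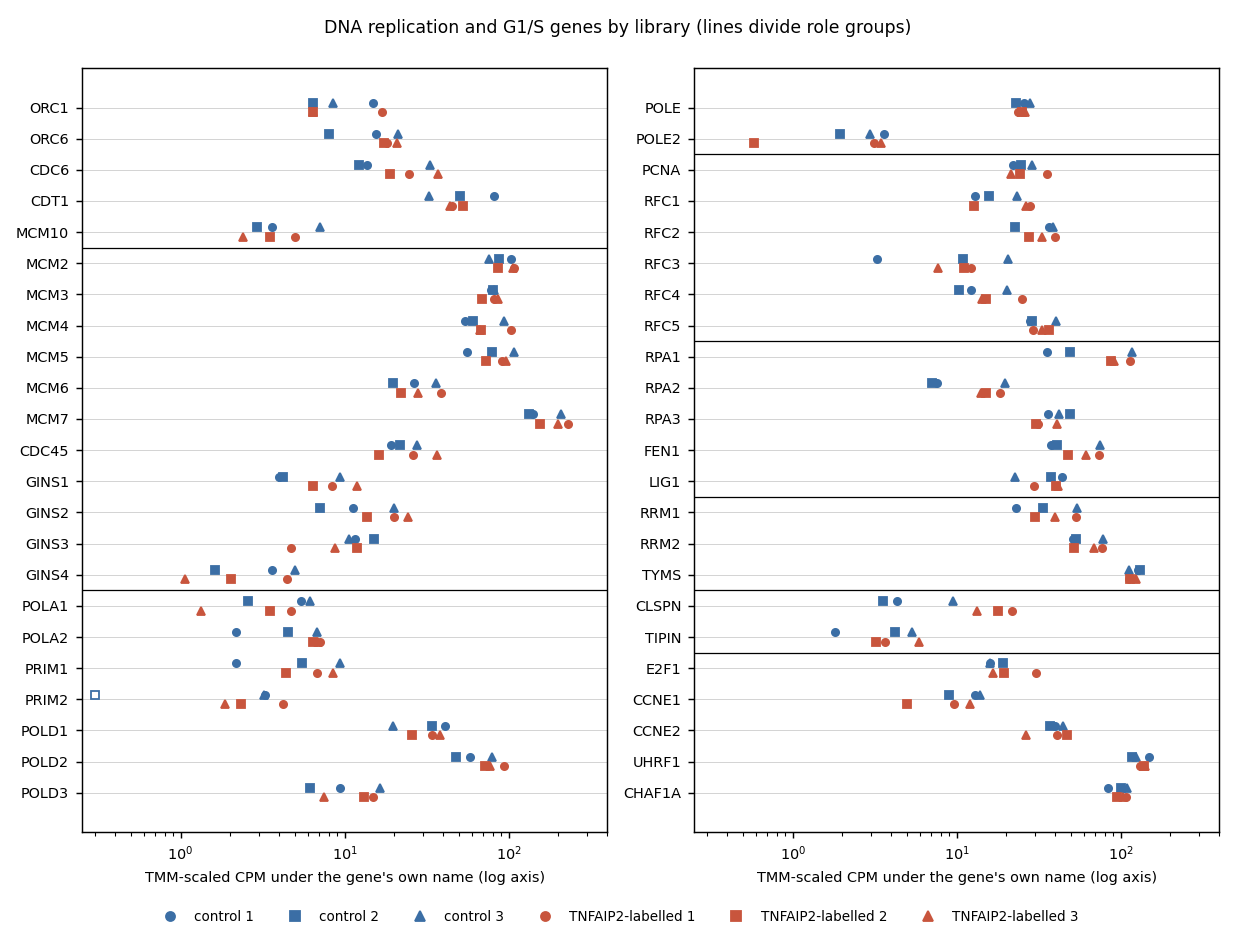
Level of each of the 46 members in each library, as TMM-scaled CPM (library-size-scaled counts) under the gene's own name on a log axis, with control libraries in blue, TNFAIP2-labelled libraries in red and a symbol for each replicate number. Black lines divide the role groups, and the open square marks PRIM2 in control replicate 2, which had 0 counts and is drawn at the left edge. CLSPN is the only gene whose red and blue symbols do not overlap.

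Summed over all members, the level varied among the libraries of each group, and the groups overlapped. The sums over the 46 members were, in CPM (counts scaled to a common library size with edgeR's TMM factors), 1576, 1520.4 and 1966 in the controls (replicates 1 to 3) and 2042, 1647 and 1884 in the TNFAIP2-labelled libraries (replicates 1 to 3). Means were 1688 ± 243 and 1857 ± 199 (SD, n = 3). Control replicate 3 was above TNFAIP2-labelled replicates 2 and 3, so the groups overlap. That control was the highest of the 3 controls for 34 of 46 members (73.9%), against 48.2% of protein-coding rows. In the other group, replicate 2 was the lowest for 25 members (54.3%), against 43.9% of protein-coding rows. These are also the libraries that stand out in the own-strand ratio, at 0.180 in control replicate 3 and 0.134 in TNFAIP2-labelled replicate 2.

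Values of single genes are given in the order of replicates 1 to 3. Among the 5 origin licensing genes (ORC1 and ORC6 of the origin recognition complex, the loaders CDC6 and CDT1, and MCM10, which helps activate the helicase), 3 had a positive log2 fold change and none passed. CDT1, the most abundant of them, had 81.7, 50.3 and 32.7 CPM in the 3 controls and 44.96, 53.03 and 44.2 CPM in the TNFAIP2-labelled libraries, a log2 difference of -0.21 (SE 0.29). Control replicate 1 was the highest library and control replicate 3 the lowest, so the control group spans the other group entirely. CDC6 had 13.7, 12.3 and 33.3 CPM in the 3 controls and 24.8, 18.9 and 37.3 CPM in the TNFAIP2-labelled libraries, with 0.44 (SE 0.39) on the log2 scale. Here control replicate 3 was the second highest of all 6 libraries. With the own-strand ratio added as a covariate the value was -0.18 for CDC6 and 0.32 for CDT1, and CDT1 was at 0.19 without control replicate 1. ORC1, ORC6 and MCM10 had values of 0.0082, 0.32 and -0.33, and mean levels over the group ran from 4.08 to 51.2 CPM.

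The CMG helicase, which unwinds DNA at the fork, is encoded here by 11 genes (MCM2 to MCM7, CDC45 and the GINS genes), of which 8 had a positive value. MCM7, a ring subunit and the most abundant of them, had 141, 133 and 209.6 CPM in the 3 controls and 229, 156 and 201 CPM in the TNFAIP2-labelled libraries, a log2 difference of 0.28 (SE 0.22). Control replicates 1 and 2 were the lowest libraries, but control replicate 3 was above 2 of the TNFAIP2-labelled libraries. MCM2 had 104, 87.4 and 75.5 CPM in the 3 controls and 108, 85.95 and 106 CPM in the TNFAIP2-labelled libraries, at 0.17 (SE 0.22). Its groups overlap, and control replicate 3 was the lowest of the 6 libraries. GINS2 had 11.2, 7.10 and 20.05 CPM in the 3 controls and 20.1, 13.7 and 24.2 CPM in the TNFAIP2-labelled libraries, at 0.59 (SE 0.40), and had the lowest unadjusted p of this group. GINS3, which lay the other way, had 11.6, 15.2 and 10.6 CPM in the 3 controls and 4.70, 11.9 and 8.78 CPM in the TNFAIP2-labelled libraries, at -0.56 (SE 0.44). GINS4 had 3.62, 1.61 and 5.01 CPM in the 3 controls and 4.44, 2.04 and 1.06 CPM in the TNFAIP2-labelled libraries, and with a total of 60 counts its value of -0.43 (SE 0.79) has a wide error. Both GINS3 and GINS4 have a far more abundant feature on the other strand, described below. The other 6 genes ran from -0.02 for MCM3 to 0.59 for GINS1.

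Polymerase and primase genes gave 6 of 9 positive values. POLD2, a subunit of the lagging-strand polymerase delta, was the most abundant and had the lowest unadjusted p of this group. It had 58.6, 48.1 and 79.3 CPM in the 3 controls and 93.6, 71.4 and 77.2 CPM in the TNFAIP2-labelled libraries, a log2 difference of 0.38 (SE 0.25). Again control replicate 3 lay above 2 of the 3 TNFAIP2-labelled libraries. POLD1, the catalytic subunit of the same enzyme, had 40.9, 34.2 and 19.8 CPM in the 3 controls and 33.98, 25.9 and 38.1 CPM in the TNFAIP2-labelled libraries, at 0.052 (SE 0.31), and its control replicate 3 was the lowest of all libraries. PRIM1, the catalytic primase subunit that makes RNA primers, had 2.17, 5.48 and 9.43 CPM in the 3 controls and 6.80, 4.37 and 8.52 CPM in the TNFAIP2-labelled libraries, at 0.19 (SE 0.58). Its controls hold both the lowest and the highest of the 6 libraries. Over the group, mean levels per kilobase of exon ran from 0.531 CPM for PRIM2, which had 0 counts in control replicate 2, to 19.3 CPM for POLD2. POLA1, POLA2, POLD3, POLE, POLE2 and PRIM2 had log2 fold changes between -0.57 and 0.58.

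Genes of the sliding clamp and its loader gave 5 of 6 positive values, with RFC3 the exception at -0.18. RFC2, a small subunit of the clamp loader, had 36.5, 22.6 and 38.6 CPM in the 3 controls and 39.7, 27.7 and 33.3 CPM in the TNFAIP2-labelled libraries, at 0.044 (SE 0.30) on the log2 scale. RFC5, another small subunit, had 28.2, 28.7 and 40.1 CPM in the 3 controls and 29.01, 36.4 and 33.00 CPM in the TNFAIP2-labelled libraries, at 0.018 (SE 0.29), a value whose sign turned with DESeq2-type scaling. RFC1, the large subunit of the loader and the gene of this group with the lowest unadjusted p, had 13.01, 15.8 and 23.3 CPM in the 3 controls and 27.97, 12.8 and 26.6 CPM in the TNFAIP2-labelled libraries, at 0.37 (SE 0.37). Each of these ranges overlaps between the groups. PCNA, the clamp that holds polymerases on DNA, had a mean of 25.1 ± 3.31 CPM in controls and 27.1 ± 7.44 CPM in TNFAIP2-labelled libraries (SD, n = 3).

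Of 5 genes for single-strand binding and lagging-strand joining, 4 had a positive value. RPA1, the large subunit of the protein that coats single-stranded DNA, had 35.8, 49.4 and 117 CPM in the 3 controls and 114, 87.4 and 91.03 CPM in the TNFAIP2-labelled libraries, a log2 difference of 0.53 (SE 0.37). Control replicates 1 and 2 were the lowest and control replicate 3 the highest of the 6 libraries. Without control replicate 3 the value was 1.19 with edgeR adjusted p = 0.0012, a setting under which 922 of 12443 rows passed. Over the other alternatives its adjusted p reached 0.9999. FEN1, the flap nuclease that trims Okazaki fragments, had 37.6, 40.6 and 75.2 CPM in the 3 controls and 73.7, 48.1 and 61.2 CPM in the TNFAIP2-labelled libraries, at 0.25 (SE 0.28). Its order of libraries was that of RPA1, with control replicate 3 highest. LIG1, which seals the fragments, had 43.7, 37.4 and 22.7 CPM in the 3 controls and 29.5, 40.2 and 41.3 CPM in the TNFAIP2-labelled libraries, at 0.099 (SE 0.30), with control replicate 3 the lowest. RPA3, the smallest subunit of the protein that holds RPA1, had 36.2, 49.04 and 42.2 CPM in the 3 controls and 31.4, 30.3 and 40.99 CPM in the TNFAIP2-labelled libraries, at -0.31 (SE 0.27). RPA2 lay at 0.45 (SE 0.42) on the log2 scale.

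The 3 nucleotide supply genes did not separate the groups. TYMS, which makes thymidylate and had the highest level per kilobase of exon among the members (48.6 CPM), had 127, 132 and 112 CPM in the 3 controls and 113, 114 and 123 CPM in the TNFAIP2-labelled libraries, a log2 difference of -0.08 (SE 0.20). Its 6 values lay close together, and the sign of the difference turned with library totals in place of TMM. RRM2, the regulated subunit of ribonucleotide reductase, had 51.3, 53.6 and 78.1 CPM in the 3 controls and 77.1, 52.2 and 68.4 CPM in the TNFAIP2-labelled libraries, at 0.11 (SE 0.25). RRM1, its catalytic partner, had 23.1, 33.6 and 54.2 CPM in the 3 controls and 53.3, 30.01 and 39.9 CPM in the TNFAIP2-labelled libraries, at 0.15 (SE 0.32). For both, control replicate 3 was the highest of the 6 libraries.

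CLSPN (ENSG00000092853) had the lowest unadjusted p of the members. It encodes claspin, an adaptor that passes the ATR checkpoint signal to CHK1 at stalled forks. Counts were 12, 11 and 32 in controls and 83, 61 and 50 in TNFAIP2-labelled libraries. In scaled units CLSPN had 4.34, 3.55 and 9.43 CPM in the 3 controls and 21.7, 17.8 and 13.3 CPM in the TNFAIP2-labelled libraries, or 5.77 ± 3.19 and 17.6 ± 4.20 CPM (SD, n = 3). The groups do not overlap, which in this direction also held for 5.54% of all rows and 6.79% of protein-coding rows. Control replicate 3 was the highest control. The log2 fold change was 1.59 (SE 0.45), with edgeR adjusted p = 0.83 over all rows, so it did not pass. It was 1.22 with the own-strand ratio added as a covariate and 1.35 to 2.15 when 1 library was left out. Only without control replicate 3 did it pass (adjusted p = 0.00355), a setting under which 922 of 12443 rows passed, and over all alternatives its adjusted p ran up to 1. TIPIN, a fork protection partner of TIMELESS, had 1.81, 4.19 and 5.31 CPM in the 3 controls and 3.66, 3.20 and 5.86 CPM in the TNFAIP2-labelled libraries, at 0.16 (SE 0.67), with groups that overlap.

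Of the 5 genes of G1/S control and chromatin, 3 had a positive value. UHRF1, which brings maintenance DNA methylation to new DNA, had 149.7, 117 and 124 CPM in the 3 controls and 131, 138 and 140.3 CPM in the TNFAIP2-labelled libraries, a log2 difference of 0.07 (SE 0.20). CHAF1A, the large subunit of the chromatin assembly factor at the fork, had 83.9, 100.006 and 109 CPM in the 3 controls and 107, 95.3 and 104 CPM in the TNFAIP2-labelled libraries, at 0.065 (SE 0.21). For both genes the groups overlap. E2F1, the transcription factor of the group, had 15.9, 19.03 and 15.9 CPM in the 3 controls and 30.6, 19.5 and 16.8 CPM in the TNFAIP2-labelled libraries, at 0.39 (SE 0.34). TNFAIP2-labelled replicate 1 was the highest library, and replicate 3 of that group lay among the controls. Of the E-type cyclins, CCNE2 had 39.8, 37.1 and 44.5 CPM in the 3 controls and 41.04, 46.9 and 26.6 CPM in the TNFAIP2-labelled libraries, at -0.085 (SE 0.28), and CCNE1 lay at -0.43 (SE 0.44). The CCNE2 value turned positive with library totals in place of TMM.

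**Figure D2:**
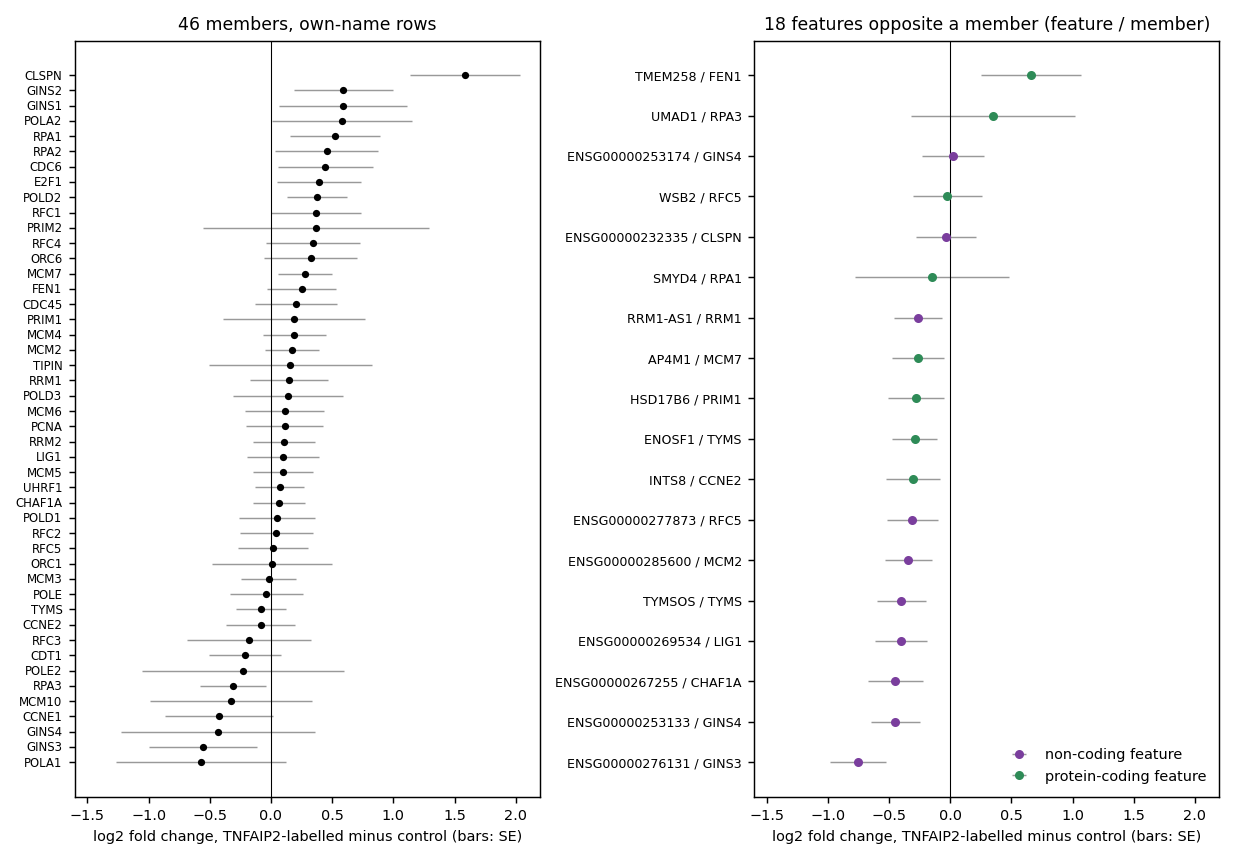
Log2 fold changes from edgeR, TNFAIP2-labelled minus control, with bars of 1 SE. The left panel holds the 46 members by their own rows, 33 of them above 0, and the right panel the 18 table features that overlap a member's exons on the other strand, 3 of them above 0, with the member named after the slash.

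Features on the other strand of the members had mostly negative values, and the size of this shift depended on the scaling. Of the 46 members, 15 had at least 50 exonic bases overlapped by a table feature on the other strand (GENCODE release 29 exons), in 18 features: 10 non-coding ones, opposite 9 members, and 8 protein-coding genes. Of the exonic bases of a non-coding feature, 14.2% to 97.5% lay in the member's exons, so a feature's counts can also come from bases outside the member. In the shared bases, reads of the member and of the feature differ only in strand. Summed over libraries, all 10 non-coding features held more counts than the member they face, from 1.27 to 87.1 times as many, and per exonic base from 9.89 to 866 times. Together they held 66033 counts over the 6 libraries, and the 9 members 9091. Whether those reads stem from the member's mRNA or from the antisense feature cannot be told apart from the counts. Of the 10 features, 1 had a positive log2 fold change (median -0.37), against 19.1% of all rows that are not protein-coding (median -0.28). When rows that are not protein-coding were fitted alone, with their own totals and TMM factors, a fit chosen after seeing the data, 3 of these 10 were positive with a median of -0.091, beside 50.1% of all rows of that fit. None of the 18 passed (edgeR), and 2 had an unadjusted p below 0.05, both non-coding, against 9.16% of rows that are not protein-coding. Groups that did not overlap were lower for 2 non-coding features (background 10.1%) and higher for none of them (background 1.50%). Without control replicate 3, 922 of 12443 rows passed, 514 of them higher and 408 lower. In that fit 5 of the 18 features passed, all non-coding and lower. Their edgeR adjusted p ran from 0.00355 for ENSG00000276131 (log2 fold change -0.91) to 0.0488 for ENSG00000269534 (-0.58). Of all rows in that fit that are not protein-coding, 17.5% had a positive value, and how many of them passed was not counted.

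In RFC5, CLSPN and CHAF1A the overlaps lie wholly in coding sequence and show what is shared. The bases below are read from GENCODE release 29 transcripts (GRCh38) on the member's strand, with the shared bases in capitals and 10 flanking bases of the mRNA on each side in lower case. RFC5 shares 160 bases of exon 7 with ENSG00000277873 (chromosome 12, 118024851 to 118025010). CLSPN shares 280 bases of 3 exons with ENSG00000232335, of which 125 are in exon 19 (chromosome 1, 35739389 to 35739513). CHAF1A shares 81 bases of exon 10 with ENSG00000267255 (chromosome 19, 4429708 to 4429788).
RFC5: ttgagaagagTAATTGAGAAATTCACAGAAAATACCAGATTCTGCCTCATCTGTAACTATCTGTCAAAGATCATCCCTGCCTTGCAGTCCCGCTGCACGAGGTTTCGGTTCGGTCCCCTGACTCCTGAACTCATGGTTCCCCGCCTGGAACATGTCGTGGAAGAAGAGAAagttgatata
CLSPN: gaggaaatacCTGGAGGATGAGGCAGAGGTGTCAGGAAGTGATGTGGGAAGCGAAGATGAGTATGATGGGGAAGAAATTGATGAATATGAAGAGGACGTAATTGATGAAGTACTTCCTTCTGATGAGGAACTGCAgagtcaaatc
CHAF1A: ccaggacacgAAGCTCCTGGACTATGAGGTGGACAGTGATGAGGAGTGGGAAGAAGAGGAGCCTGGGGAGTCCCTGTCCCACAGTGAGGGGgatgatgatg

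The feature opposite MCM2 was the most abundant non-coding one. ENSG00000285600 (chromosome 3, 127620106 to 127629049, minus strand) lies across 1113 exonic bases of MCM2 and had 1939.9, 1976 and 1396 CPM in the 3 controls and 1259.8, 1589 and 1334 CPM in the TNFAIP2-labelled libraries, a log2 difference of -0.34 (SE 0.19), where MCM2 itself lay at 0.17. Control replicates 1 and 2 were the highest, and control replicate 3 lay within the other group. TYMSOS, which spans the start of TYMS (chromosome 18, 630886 to 658340, minus strand), had 704, 567 and 446 CPM in the 3 controls and 374, 489 and 439 CPM in the TNFAIP2-labelled libraries, a log2 difference of -0.40 (SE 0.20), with TYMS at -0.08. The same control was again the lowest of the 3. ENOSF1, a protein-coding gene that shares 967 bases with the 3′ part of TYMS, had 2428, 2760.5 and 2186 CPM in the 3 controls and 1889, 2336 and 1811 CPM in the TNFAIP2-labelled libraries, at -0.29 (SE 0.18).

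The largest ratio of a feature's counts to its member's was found at GINS4. ENSG00000276131 (chromosome 16, 58392153 to 58392807, minus strand) covers the RefSeq start of GINS3 and the whole promoter window printed above, though the gene model of the table begins upstream of it, at 58295080. It had 156, 157 and 109.7 CPM in the 3 controls and 66.7, 95.9 and 88.6 CPM in the TNFAIP2-labelled libraries, a log2 difference of -0.75 (SE 0.23). All 3 TNFAIP2-labelled libraries lay below the 3 controls. GINS3 under its own name also had a negative value, -0.56, so here both strands lay the same way. Opposite GINS4, ENSG00000253133 had 284, 350.3 and 273 CPM in the 3 controls and 218, 266 and 181 CPM in the TNFAIP2-labelled libraries, a log2 difference of -0.45 (SE 0.20). Its groups did not overlap either. ENSG00000253174, which lies almost wholly within GINS4 exons (97.5% of its bases), had 65.8, 82.9 and 43.9 CPM in the 3 controls and 59.9, 68.8 and 66.8 CPM in the TNFAIP2-labelled libraries, at 0.022 (SE 0.25), and its sign turned under DESeq2-type scaling. The 2 features opposite GINS4 thus gave different values.

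CLSPN was the member whose strands differed most. The antisense feature ENSG00000232335 had 78.4, 74.8 and 51.9 CPM in the 3 controls and 52.5, 73.1 and 74.5 CPM in the TNFAIP2-labelled libraries, a log2 difference of -0.034 (SE 0.25) beside 1.59 for CLSPN. The feature's groups overlap, and its sign turned with library totals in place of TMM. CLSPN's own count divided by that of the feature, with 0.5 added to both, was 0.0575, 0.0495 and 0.184 in the controls (replicates 1 to 3) and 0.414, 0.245 and 0.180 in the TNFAIP2-labelled libraries (replicates 1 to 3). The ratio was thus highest in TNFAIP2-labelled replicate 1 and equal to 2 digits in control replicate 3 and TNFAIP2-labelled replicate 3.

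The remaining non-coding features lay opposite RRM1, LIG1, RFC5 and CHAF1A. RRM1-AS1, on 63 exonic bases of RRM1, had 315, 384 and 293 CPM in the 3 controls and 253, 311 and 262 CPM in the TNFAIP2-labelled libraries, at -0.26 (SE 0.19). ENSG00000269534, opposite LIG1, had 232, 188 and 141 CPM in the 3 controls and 132, 159 and 133 CPM in the TNFAIP2-labelled libraries, at -0.40 (SE 0.21). For both, the ranges of the groups overlap. ENSG00000277873, opposite RFC5, had 146, 147 and 128 CPM in the 3 controls and 103, 132 and 105 CPM in the TNFAIP2-labelled libraries, at -0.31 (SE 0.21). ENSG00000267255, opposite CHAF1A, had 194, 143 and 115 CPM in the 3 controls and 99.3, 119 and 113 CPM in the TNFAIP2-labelled libraries, at -0.45 (SE 0.22). In each of these control replicate 3 was the lowest control, as it was in all 10 non-coding features, against 67.6% of all rows that are not protein-coding. The 7 protein-coding features other than ENOSF1 (AP4M1, WSB2, HSD17B6, TMEM258, SMYD4, UMAD1 and INTS8) had log2 fold changes from -0.30 for INTS8, opposite CCNE2, to 0.66 for TMEM258, opposite FEN1. TMEM258 had 6.87, 10.3 and 10.02 CPM in the 3 controls and 18.6, 13.4 and 11.2 CPM in the TNFAIP2-labelled libraries, and its groups did not overlap.

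**Figure D3:**
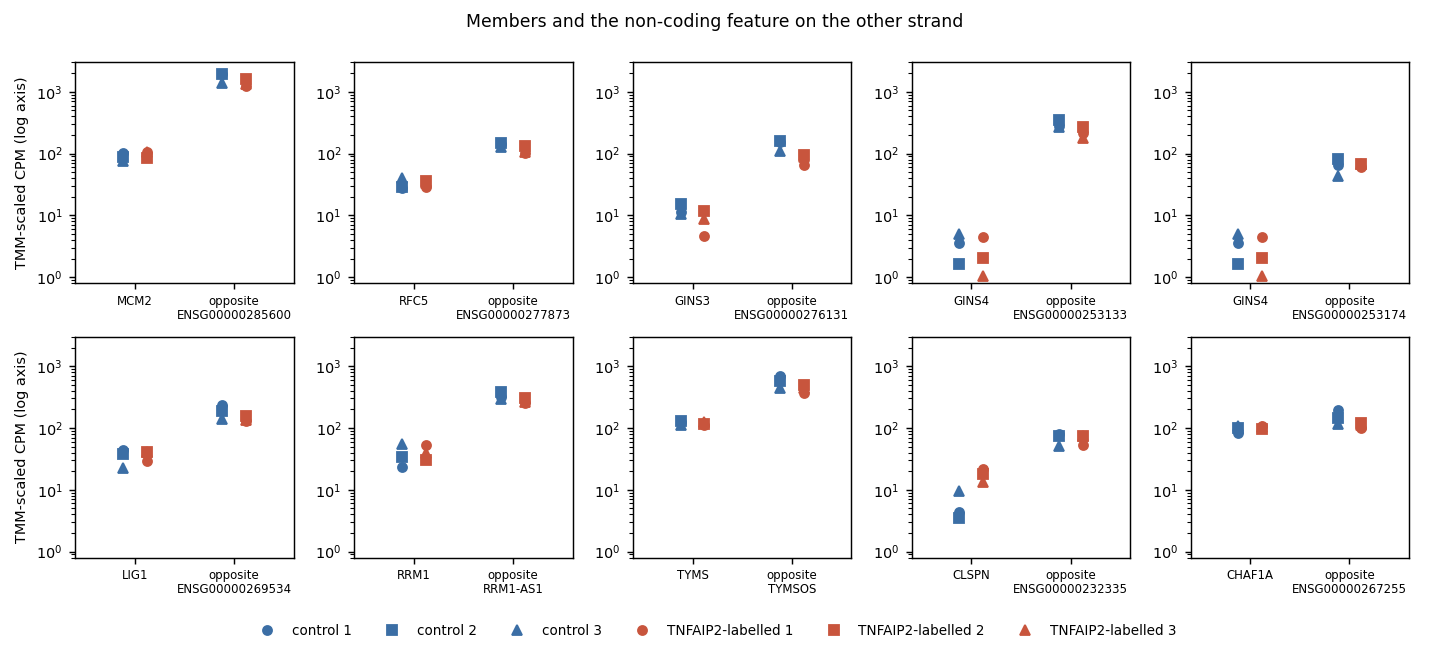
Level of each of 9 members and of the 10 non-coding features on the other strand, as TMM-scaled CPM on a log axis, 1 panel per pair, with GINS4 in 2 panels. Controls are blue and TNFAIP2-labelled libraries red, with a symbol for each replicate number. The feature's symbols lie above the member's except for CHAF1A, where they overlap, and CLSPN is the member whose groups do not overlap.

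The sum over the opposite features varied more between libraries than the sum over the 9 members they face. The 10 non-coding features summed, in CPM, to 4116, 4071 and 2997 in the controls (replicates 1 to 3) and 2618, 3303 and 2797 in the TNFAIP2-labelled libraries (replicates 1 to 3). Control replicate 3 and TNFAIP2-labelled replicates 1 and 3 were the lowest here, and the same libraries were the highest for the own-name sum over all 46 members and for the own-strand ratio of the whole table. The 9 members that face these features did not show that order: their own-name sums, in CPM, were 429, 439 and 438 in the controls (replicates 1 to 3) and 471, 434 and 470.0 in the TNFAIP2-labelled libraries (replicates 1 to 3). Control replicate 3 lay below control replicate 2 there. The median over these 10 pairs of the member's own count to the feature's count was 0.0746, 0.0925 and 0.173 in the controls (replicates 1 to 3) and 0.218, 0.180 and 0.166 in the TNFAIP2-labelled libraries (replicates 1 to 3). The part of the own-strand ratio in the members' values was not tested. A fit with the ratio as a covariate cannot decide it. The ratio comes from the same table of counts and was lowest in control replicates 1 and 2, so it is partly confounded with group. In that fit 13 of 46 members had a positive log2 fold change and the median was -0.12, beside 49.1% and -0.0077 for protein-coding rows, and 0 members passed.

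**Figure D4:**
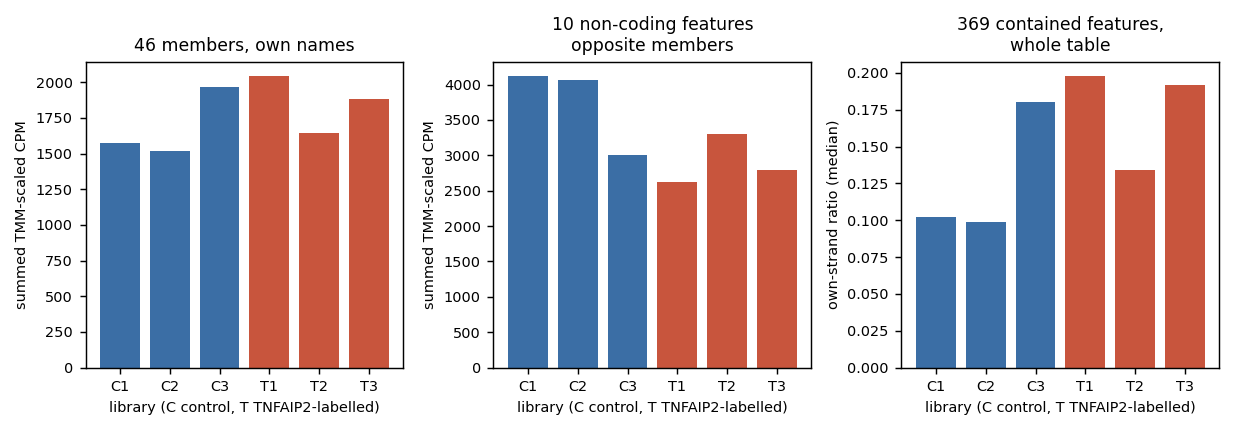
Summed TMM-scaled CPM of the 46 members under their own names, summed CPM of the 10 non-coding features opposite members, and the own-strand ratio of the whole table, 1 bar per library, with controls C1 to C3 in blue and TNFAIP2-labelled libraries T1 to T3 in red. C3, T1 and T3 are the 3 highest bars in the left and right panels and the 3 lowest in the middle one.

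The members' direction depended on which rows were scaled together. When protein-coding rows alone were fitted, with their own totals and TMM factors, 22 of 46 members were positive and the median was -0.0023, beside 51.4% of the 9000 rows of that fit, which was chosen after seeing the data. With library totals in place of TMM, 37 were positive at a median of 0.27, while the median of all rows moved from 0.024 to 0.18. Without control replicate 3, 33 were positive at a median of 0.35, and RPA1 and CLSPN passed, 2 of 46 members where 922 of 12443 rows passed. The plot of positive shares by processing sets members beside protein-coding rows in every fit.

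**Figure D5:**
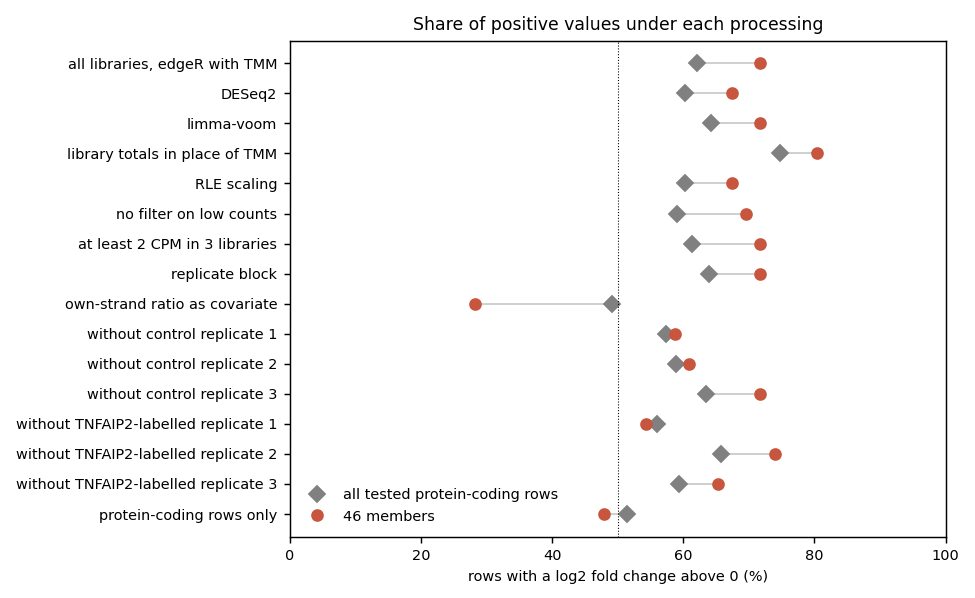
Share of rows with a log2 fold change above 0 under each processing, for the 46 members (red circles) and for all tested protein-coding rows (grey diamonds), with a dotted line at 50%. Members run from 80.4% with library totals to 28.3% with the own-strand ratio as covariate, and protein-coding rows from 74.8% to 49.1%. Members lie below protein-coding rows in that last fit, in the fit of protein-coding rows alone and without TNFAIP2-labelled replicate 1, and above them in the other fits shown.

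A list of 63 other replication and G1/S genes, all found in the table, was read from the same fit, and 53 passed the filter on low counts (not ATR, ATRIP, CDKN1A, CHEK1, CHTF8, DNA2, ORC3, POLD4, RNASEH2A or RRM2B). None passed the edgeR test and 0 had an unadjusted p below 0.05. Positive values were found for 37 of 53 (69.8%), with a median log2 fold change of 0.21. The lowest unadjusted p was that of RB1, the retinoblastoma gene that restrains E2F, which had 3.62, 0 and 7.08 CPM in the 3 controls and 14.9, 6.41 and 11.7 CPM in the TNFAIP2-labelled libraries, at 1.61 (SE 0.78) from few counts, 0 of them in control replicate 2. Leaving out 1 library moved RB1 between 1.05 and 2.63. Without control replicate 3 it passed (edgeR adjusted p = 0.0113), where 922 of 12443 rows passed. POLE3, an accessory subunit of polymerase epsilon, had 73.7, 110.0 and 127 CPM in the 3 controls and 159, 119.7 and 138 CPM in the TNFAIP2-labelled libraries, at 0.42 (SE 0.23). In RB1 and POLE3 control replicate 3 was the highest control. DONSON, which helps assemble the replicative helicase, had 375, 415 and 333 CPM in the 3 controls and 251, 354 and 274 CPM in the TNFAIP2-labelled libraries, at -0.35 (SE 0.20). TK1, the thymidine kinase of S phase, had 65.1, 61.3 and 52.8 CPM in the 3 controls and 76.3, 68.8 and 81.7 CPM in the TNFAIP2-labelled libraries, at 0.34 (SE 0.23). TK1 alone of these 4 had groups that did not overlap. Over the whole list 5 tested genes had all TNFAIP2-labelled libraries above the controls and 2 had them below, against 6.79% and 3.32% of protein-coding rows.

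Some rows may hold or lack reads of a neighbour annotated on the same strand. POLA2 shares 2012 exonic bases of GENCODE release 29 with ENSG00000285816, which had 16 counts over the 6 libraries beside 118 for POLA2. POLD3 shares 123 with ENSG00000254837, which had 303 counts beside 231. FEN1 shares 49 with FADS2, and PRIM1 33 with NACA. RRM2, POLD1, PRIM1 and TIPIN share 1077, 426, 362 and 579 bases with other models, which have no row in the table analysed here. How reads in shared bases were counted is unknown here, so the values of these 7 members are uncertain in that respect.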

How the data were processed

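RNA-seq was measured in 6 CAL27 libraries, 3 per group, prepared with a stranded mRNA kit per the labels' protocols. The authors deposited whole-number counts per gene, not normalized. Tools named in the submitters' processing notes are HTSeq 0.13.5, HISAT2 2.2.0 and Trim Galore 0.6.4, with builds GRCh38 and hg38. The strand setting of the counting and its annotation were not given in the sources used here. Groups came from titles, and columns from the names the labels give. Between libraries of a group, chi-square per degree of freedom was 5.07 to 19.4, highest between control replicates 1 and 3. Each library was kept, and these values are no check of library quality.

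All rows were fitted with edgeR 4.0.16 in R 4.3.3 (filterByExpr, TMM, robust quasi-likelihood fit, Benjamini-Hochberg threshold 0.05). The procedure was also run on simulated counts drawn gene by gene. Those hold no shift shared by the genes of a library other than depth, so that run does not cover such shifts. SEs came from the F statistic. Overlaps used GENCODE release 29 exons, with a model for 22828 of 23384 rows. Features opposite a gene shared at least 50 exonic bases. For the own-strand ratio, features had at least 90% of their bases in the gene and 60 counts, with 0.5 added to both counts. Alternatives were DESeq2 1.42.0, limma-voom 3.58.1, other scalings and filters, a replicate block, the own-strand ratio as a covariate and leaving out each library. Members and lists were chosen with earlier results of these data known. Named members were, per role, the 2 most abundant, that with the lowest unadjusted p and any with a feature on the other strand, and others were added as ranges.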

Additional observations from a re-analysis of the deposited data

How the results depend on the processing

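No member passed the adjusted p threshold under any alternative run except leaving out control replicate 3, where CLSPN and RPA1 did. When each library was left out in turn, the count of rows passing ran from 0 to 922, of members passing from 0 to 2, of positive members from 25 to 34 and the members' median log2 fold change from 0.025 to 0.35. The same ranges were 0 to 5, 2 to 5 and -0.38 to -0.17 for features opposite members, and 0 to 1, 29 to 41 and 0.053 to 0.33 for the other replication and G1/S genes. The upper end of each count of rows passing is without control replicate 3. With DESeq2 there were 3 rows passing over the whole table, and the log2 fold change changed sign for RFC5 (-0.0015), ENSG00000253174 (-0.0022). With limma-voom there was 1 row passing over the whole table, and the log2 fold change changed sign for SMYD4 (0.22). With library totals in place of TMM there were 5 positive opposite features, and the median log2 fold change of the other replication and G1/S genes was 0.37, and the log2 fold change changed sign for TYMS (0.093), CCNE2 (0.067), WSB2 (0.14), ENSG00000232335 (0.14). With no filter on low counts there were 3 rows passing over the whole table. With the own-strand ratio added as a covariate there were 13 positive members, 6 positive opposite features, 24 positive other replication and G1/S genes, and the median log2 fold change of the other replication and G1/S genes was -0.037, and the log2 fold change changed sign for CDC6 (-0.18), CDT1 (0.32), MCM7 (-0.089), PRIM1 (-0.44), RFC1 (-0.21), RFC2 (-0.23), RFC5 (-0.10), FEN1 (-0.22), RRM1 (-0.37), RRM2 (-0.25), TYMS (0.000897), TIPIN (-0.27), CHAF1A (-0.069), AP4M1 (0.13), WSB2 (0.098), ENSG00000232335 (0.28). With at least 200 exonic bases of overlap there was 1 positive opposite feature. In the fit of protein-coding rows alone, chosen after seeing the data, the log2 fold change changed sign for POLD1 (-0.096), RFC2 (-0.073), RFC5 (-0.083), LIG1 (-0.035), RRM2 (-0.0031), UHRF1 (-0.052), CHAF1A (-0.052). With RLE scaling the log2 fold change changed sign for RFC5 (-0.00071), ENSG00000253174 (-0.0023). With the replicate number as a block the log2 fold change changed sign for SMYD4 (0.16). The cause of these changes was not tested. The log2 fold changes that changed sign with a library left out ranged from -0.39 to 0.074 for TNFAIP2, from -0.48 to 0.19 for CDT1, from -0.19 to 0.76 for PRIM1, from -0.20 to 0.28 for POLD1, from -0.14 to 0.20 for RFC2, from -0.072 to 0.20 for RFC5, from -0.14 to 0.30 for LIG1, from -0.098 to 0.53 for RRM1, from -0.018 to 0.32 for RRM2, from -0.16 to 0.48 for TIPIN, from -0.23 to 0.12 for CCNE2, from -0.035 to 0.14 for CHAF1A, from -0.083 to 0.074 for WSB2, from -0.20 to 0.28 for ENSG00000253174, from -0.63 to 0.61 for SMYD4, from -0.21 to 0.11 for ENSG00000232335. Both groups carry replicate numbers 1 to 3, which the labels tie to no shared culture. Same-numbered libraries had correlations of -0.25, 0.15 and -0.047 between their deviations from the group means, and other pairs from -0.29 to 0.35. With so few libraries per group, these values cannot decide whether the numbers pair libraries. With the replicate block 0 rows passed, 33 members were positive and their median was 0.13. Members with few counts, 51 over the 6 libraries for the lowest, have SEs of up to 0.92. Depth and the spread between libraries were not separated as limits on what could pass.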
